A study of Mus musculus with 15 samples.

Results

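Described here are 37 genes of the cell division cycle in mouse kidney, of 26823 named genes present in both deposited tables. They were chosen by symbol from a list of S phase and mitosis genes, and all 37 were found. Of these, 16 belong to DNA replication and its supply, and 21 to entry into and passage through mitosis. RNA of the whole kidney was sequenced from 15 mice at 4 months of age, with 5 mice in each of 3 groups. The cFGF23-Hyp mice carried the Hyp (Hyp-Duk) loss of Phex, an X-linked gene for an endopeptidase of bone cells, and received AAV-cFGF23 by intravenous injection at 4 weeks of age, 3 months before death, at 1e12 vector genomes (vg) per mouse. AAV-cFGF23 is an adeno-associated virus that encodes the carboxy-terminal part of the hormone FGF23. The Hyp mice carried the same loss of Phex and received PBS. The WT mice had the intact gene and received PBS. Neither the promoter in the vector nor the sex of the mice was given in the sources used here.

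Cells that divide first copy their DNA and then separate the copies. Before S phase, the helicase of Mcm2 to Mcm7 is loaded at replication origins with the help of Cdc6, and Cdc45 joins it when replication starts. Pcna is the sliding clamp of the DNA polymerases, Rrm1, Rrm2 and Tyms supply deoxynucleotides, and Uhrf1 carries DNA methylation through replication. The transcription factor E2f1 and the cyclins E (Ccne1, Ccne2) switch these genes on at the end of G1. In G2 and mitosis, the kinase Cdk1 acts with the cyclins A and B, the kinases Aurka, Aurkb and Plk1 and the kinesins build and drive the spindle, and Bub1, Bub1b and Cdc20 control the start of anaphase. Most cells of the adult kidney are at rest, and the tubule epithelium is known for entering the cycle again after injury.

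The promoters of the 2 classes differ in the letters that their regulators read. E2F factors, with the repressor complexes that share their sites, bind GCGGGAAA or GCGCCAAA. The CHR element, TTTGAA, is bound by the DREAM and MuvB complexes in genes of G2 and mitosis, and is often found beside CCAAT boxes, which NF-Y binds. The windows of 3 mitosis members, Top2a, Cdk1 and Kif11, and of 2 replication members, Mcm3 and Mcm6, are shown because the values of these genes recur in the results. Each line runs 5′ to 3′ on the strand of the gene, from 250 bases before to 50 bases after the start in RefSeq (GRCm38.p6), and capitals mark CHR, CCAAT and E2F letters on either strand. All windows but that of Kif11, which lies on the plus strand, are on the minus strand. Top2a is at chr11:99024140-99024439, Cdk1 at chr10:69352863-69353162, Kif11 at chr19:37376132-37376431, Mcm3 at chr1:20820263-20820562 and Mcm6 at chr1:128359656-128359955.
Top2a: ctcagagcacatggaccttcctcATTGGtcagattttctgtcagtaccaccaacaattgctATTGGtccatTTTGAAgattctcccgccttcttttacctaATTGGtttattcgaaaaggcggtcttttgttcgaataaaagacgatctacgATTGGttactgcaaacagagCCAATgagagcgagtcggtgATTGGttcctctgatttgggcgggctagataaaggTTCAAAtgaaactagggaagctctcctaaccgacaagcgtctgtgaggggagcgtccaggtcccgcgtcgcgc
Cdk1: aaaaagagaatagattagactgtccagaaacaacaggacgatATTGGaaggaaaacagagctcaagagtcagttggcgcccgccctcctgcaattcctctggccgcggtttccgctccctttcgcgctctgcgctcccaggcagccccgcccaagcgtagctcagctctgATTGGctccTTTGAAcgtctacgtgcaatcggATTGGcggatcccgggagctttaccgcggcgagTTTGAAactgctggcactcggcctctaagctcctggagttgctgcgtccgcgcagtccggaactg
Kif11: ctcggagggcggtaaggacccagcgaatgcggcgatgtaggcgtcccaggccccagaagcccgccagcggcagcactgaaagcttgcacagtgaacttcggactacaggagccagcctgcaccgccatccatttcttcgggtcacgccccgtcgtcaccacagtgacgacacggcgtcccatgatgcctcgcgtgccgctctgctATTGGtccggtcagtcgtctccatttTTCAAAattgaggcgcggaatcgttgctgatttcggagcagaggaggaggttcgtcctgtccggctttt
Mcm3: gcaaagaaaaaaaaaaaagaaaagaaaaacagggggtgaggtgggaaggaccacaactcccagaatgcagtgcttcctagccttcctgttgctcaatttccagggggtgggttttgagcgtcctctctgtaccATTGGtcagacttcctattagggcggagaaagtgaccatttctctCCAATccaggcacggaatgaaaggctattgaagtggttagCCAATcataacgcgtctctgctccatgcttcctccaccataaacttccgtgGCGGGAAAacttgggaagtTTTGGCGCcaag
Mcm6: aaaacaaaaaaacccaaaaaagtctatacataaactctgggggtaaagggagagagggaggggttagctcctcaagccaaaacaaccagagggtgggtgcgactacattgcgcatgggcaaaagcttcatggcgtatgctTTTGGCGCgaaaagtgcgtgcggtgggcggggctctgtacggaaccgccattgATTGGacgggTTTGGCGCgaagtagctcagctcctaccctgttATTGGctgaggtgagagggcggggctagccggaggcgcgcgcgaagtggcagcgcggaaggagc

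The Top2a window held 2 matches to CHR and 6 to CCAAT, and that of Cdk1 2 and 3. Kif11 had 1 of each, with the CHR letters on the opposite strand (TTCAAA), 19 bases before the start. Mcm3 and Mcm6 had no CHR letters and 2 E2F matches each. Of 37 members, 31 had a window in the RefSeq table, and Mcm7, Prc1 and Uhrf1 had 2 windows each, those of Prc1 overlapping. CHR letters stood in 13 of 18 mitosis windows (72.2%) and in 2 of 16 replication windows (12.5%), where 17.9% of all 32851 windows held them. E2F letters stood in 5 of 16 replication windows (31.2%), those of Cdc6, Mcm3, Mcm5, Mcm6 and Mcm7, and in 0 of 18 mitosis windows, where 1.56% of all windows held them. CCAAT was found in 16 mitosis windows (88.9%) and 12 replication windows (75%), where 37.4% of all windows held it. Both strands were searched for all 3 motifs. These matches describe the letters in the window and do not show binding.

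**Figure D1:**
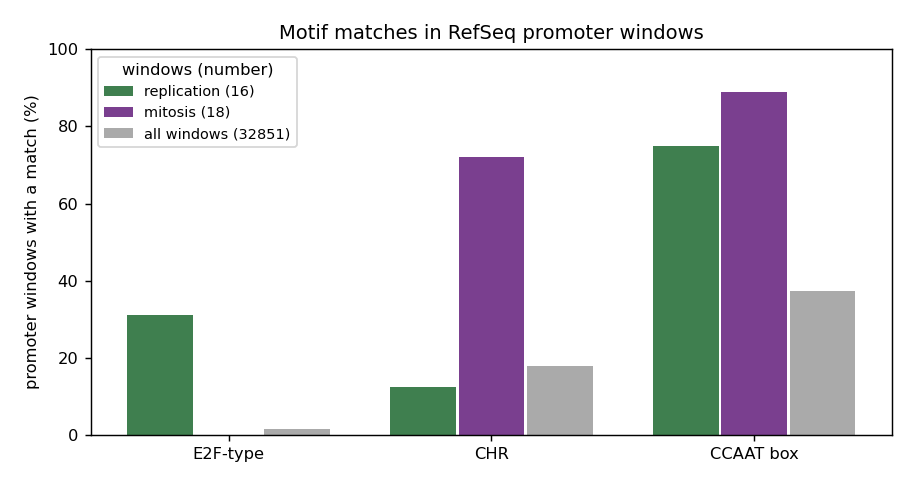
Share of RefSeq promoter windows (y axis, %) with at least 1 match to each motif (x axis), for replication members (16 windows), mitosis members (18 windows) and all 32851 windows. CHR letters stood in 72.2% of mitosis windows and E2F letters in 31.2% of replication windows.

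Total counts per library ran from 13083190 to 21829906, and Phex had 0 to 3 counts in the libraries of all 3 groups, so its level could not check the genotype labels. Summed proximal tubule markers (12 genes) lay between 31657 and 55702 CPM (counts scaled to library size), so the labelled tissue had its defining markers. Some libraries stood apart. The library titled WT_5 carries a genotype label for Phex loss, and its cell type is labelled Hyp. The synaptic vesicle gene Synpr, chosen with its values known, read 42 CPM in cFGF23-Hyp_5, where the other 4 cFGF23-Hyp libraries read 0.276 to 2.94 CPM. The Hyp libraries read 0.303 to 1.29 CPM. WT_5 read 0.542 CPM, where the other 4 WT libraries read 21.8 to 40.6 CPM. On the first principal component, cFGF23-Hyp_3 lay at -76.08 and the other 14 libraries at -11.93 to 17.10. All libraries were kept under their titles, p-values measure the spread between these libraries, and values without them are given beside results whose call they change.

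Expression of the members was low. To compare genes, levels per gene length are needed, here the deposited FPKM (fragments per kilobase of gene, scaled to the library), as the median over the 15 libraries. The median replication member had 1.17 FPKM and the median mitosis member 0.241 FPKM, against 3.77 FPKM over all 15789 tested genes. Pcna was the most abundant replication member at 10.4 FPKM, followed by Mcm7 at 4.99 FPKM and Mcm6 at 3.01 FPKM, and Cdc6 was the lowest at 0.178 FPKM. Among the mitosis members, Cdc20, the activator of the anaphase-promoting complex, was highest at 0.901 FPKM and the kinetochore gene Cenpf lowest at 0.0469 FPKM. The highest mitosis member thus lay below the median of the replication class. Depth limits these genes: Top2a had 9 to 103 counts per library, Cdk1 10 to 51 and Ccnb1, the cyclin B1 gene, 2 to 21, while Pcna had 293 to 544 counts. In whole kidney, fewer dividing cells and less of a transcript in each cell cannot be told apart.

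Of the 37 members, 34 passed the filter on low counts, 15 of the replication and 19 of the mitosis class. The other 3 were Ccne1 and the spindle checkpoint kinase genes Bub1 and Bub1b. Ccne1 was at 0.921, 0.665, 0.0842, 0.207 and 0.386 CPM in cFGF23-Hyp_1 to cFGF23-Hyp_5, at 0.545, 0.541, 0.491, 0.728 and 0.467 CPM in Hyp_1 to Hyp_5, and at 0.359, 0.434, 0.627, 0.291 and 0.542 CPM in WT_1 to WT_5. These are 1 to 15 counts per library, and the groups overlapped throughout. CPM values here are on library sizes scaled by TMM, and values of a group are listed below in the order of libraries 1 to 5.

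Hyp kidneys were compared with WT kidneys to ask what the loss of Phex changes. None of the 34 tested members was called at an adjusted p under 0.05 (edgeR quasi-likelihood test, Benjamini-Hochberg over all 15789 tested genes), and none was called with DESeq2, which gave an adjusted p to 14 of 15 replication and 14 of 19 mitosis members, or limma-voom. The background was 54 called genes, 28 higher and 26 lower in Hyp, or 0.342% of those tested with edgeR, 2.46% with DESeq2 and 0.481% with limma-voom. At an unadjusted p under 0.05 stood 0 of 15 replication members (0%) and 1 of 19 mitosis members (5.26%), against 13.4% of all tested genes. The share among the members was below that of all tested genes. The median log2 fold change was 0.20 over the tested replication members, 11 of 15 being positive, and 0.13 over the mitosis members, 12 of 19 being positive, against 0.00 over all tested genes with 50.6% positive. Without WT_4 the median of the mitosis members was -0.07, and without Hyp_2 it was -0.00, so its sign rested on these libraries. Without WT_5 and cFGF23-Hyp_5, with all other libraries kept, the medians were 0.27 and 0.12, and without cFGF23-Hyp_3 as well they were 0.28 and 0.11. No member was called in either case, where these fits called 228 and 1527 genes (edgeR).

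Among the replication members, the smallest p-values in this comparison belonged to Mcm2, Mcm3 and Uhrf1. Mcm2, a helicase subunit, was at 16.3, 16.4, 13.6, 16.1 and 15 CPM in Hyp, against 15.4, 13.3, 12.0, 9.96 and 13.9 CPM in WT. Mcm3, another subunit, was at 4.43, 5.08, 3.25, 6.92 and 5.14 CPM in Hyp, against 3.88, 4.15, 1.78, 2.67 and 4.61 CPM in WT. Uhrf1 was at 4.02, 2.97, 1.84, 2.61 and 2.16 CPM in Hyp, against 1.94, 3.16, 1.57, 0.971 and 1.57 CPM in WT. For each of these genes the Hyp values tended to the upper end, and the groups overlapped. The log2 fold changes were 0.26 ± 0.13 for Mcm2, 0.54 ± 0.27 for Mcm3 and 0.57 ± 0.30 for Uhrf1 (estimate ± SE, 5 mice a group), with adjusted p-values of 0.391, 0.399 and 0.423 (edgeR). In the authors' deposited table, Mcm2 and Mcm3 had log2 fold changes of 0.26 and 0.54 with adjusted p-values of 0.16 and 0.18.

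Among the mitosis members these were Kif11, Cenpe and Mki67. Kif11, the kinesin that pushes the spindle poles apart, was at 1.36, 1.46, 1.23, 1.09 and 1.28 CPM in Hyp, against 0.719, 0.991, 0.837, 0.583 and 0.758 CPM in WT. All 5 Hyp values lay above all 5 WT values, and Kif11 was the 1 member of 34 with groups that did not overlap, where 5.74% of all tested genes had such groups, 2.91% with Hyp higher and 2.84% with Hyp lower. Its log2 fold change was 0.72 ± 0.30 (95% interval 0.09 to 1.36), with an unadjusted p of 0.028 and an adjusted p of 0.305 (edgeR). With each of the 15 libraries left out in turn it stayed between 0.63 and 0.82, with adjusted p-values of 0.143 to 0.519 (edgeR). The authors' deposited table gave 0.73 with an adjusted p of 0.12.

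Cenpe, a kinetochore motor, was at 1.7, 3.14, 3.92, 2.31 and 1.63 CPM in Hyp, against 3.09, 7.81, 4.29, 2.82 and 1.9 CPM in WT. WT_2 alone was above 5 CPM, and the groups overlapped. The log2 fold change was -0.64 ± 0.33 (adjusted p = 0.418, edgeR) and -0.25 without WT_2. Mki67, the antigen used to count cycling cells, was at 3.75, 3.41, 1.9, 2.85 and 2.51 CPM in Hyp, against 2.73, 2.17, 2.14, 0.874 and 1.84 CPM in WT. The groups overlapped, with WT_4 lowest of all 15 libraries. Its log2 fold change was 0.57 ± 0.32 (95% interval -0.10 to 1.25, adjusted p = 0.452, edgeR), and 0.38 without WT_4.

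Top2a, the topoisomerase that untangles sister chromatids, was at 1.7, 2.7, 1.35, 2.31 and 1.98 CPM in Hyp, against 2.37, 2.48, 1.88, 0.777 and 1.79 CPM in WT. Cdk1, the kinase of mitotic entry, was at 1.09, 1.19, 0.92, 1.27 and 0.642 CPM in Hyp, against 0.719, 1.24, 1.41, 0.68 and 1.03 CPM in WT. Ccnb1 was at 0.682, 1.14, 0.675, 0.182 and 0.233 CPM in Hyp, against 0.647, 0.558, 0.418, 0.291 and 0.325 CPM in WT. In all 3 genes the Hyp and WT ranges overlapped, and that of Ccnb1 was wider in Hyp, where Hyp_2 was highest. The fitted log2 differences were 0.13 (95% interval -0.76 to 1.02), 0.01 (-0.68 to 0.70) and 0.41 (-0.67 to 1.5) in that order, with intervals that reach well to both sides of 0. That of Top2a was -0.07 and that of Cdk1 -0.12 without WT_4, and that of Ccnb1 -0.00 without Hyp_2.

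**Figure D2:**
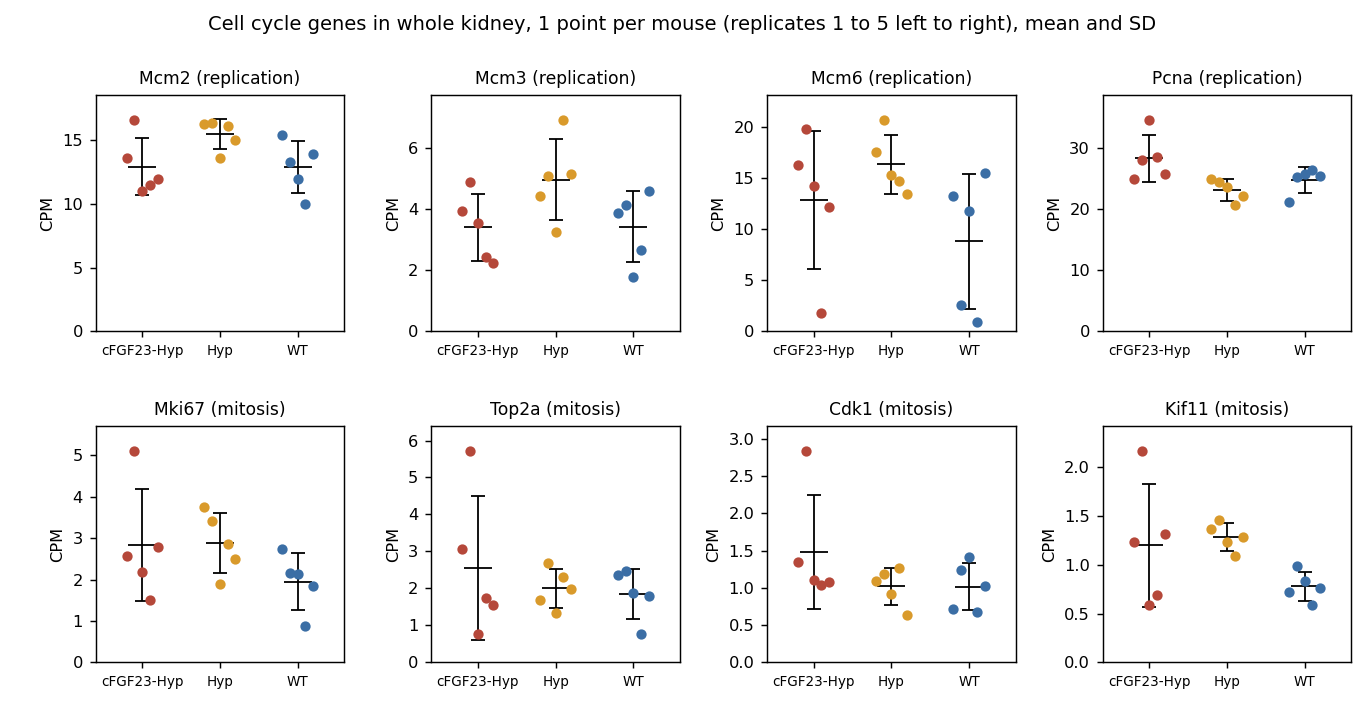
CPM (y axes, from 0) of 4 replication members (top) and 4 mitosis members (bottom) in cFGF23-Hyp, Hyp and WT kidneys, 1 point per mouse, with bars for the mean and SD of 5 mice. Kif11 has all Hyp points above all WT points, Mcm6 has 3 points below 3 CPM, and cFGF23-Hyp_2 is the highest point for Mki67, Top2a, Cdk1 and Kif11.

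Kidneys of cFGF23-Hyp mice were compared with Hyp kidneys to ask what the vector changes on the Hyp background, and with WT kidneys to ask what distance remains. These comparisons share libraries with each other and with the first one, so their values are not independent. No member was called in either, and no gene was called at all (0% of 15789 in both, edgeR). Without WT_5 and cFGF23-Hyp_5, edgeR called 67 genes against Hyp and 177 against WT. With cFGF23-Hyp_3 left out as well it called 63 and 583, and no member was called in these fits. DESeq2 called 0.815% and 0.038% of the genes it tested, and limma-voom 0.0127% and 0%, with 0 members among them. At an unadjusted p under 0.05 stood 1 of 15 replication members (6.67%) and 0 of 19 mitosis members against Hyp, where 10.4% of all tested genes did. Against WT these were 1 of 15 replication members (6.67%) and 4 of 19 mitosis members (21.1%), where 5.73% of all tested genes did. The 4 were Prc1, Ccnb2 and Kif11 on the higher side and Cenpe on the lower side. No member had groups that did not overlap, where 1.84% of all tested genes did against Hyp and 0.488% against WT.

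The median log2 fold change of cFGF23-Hyp over Hyp was -0.07 in the replication class, 6 of 15 members being positive, and 0.12 in the mitosis class, 12 of 19 being positive. Over all tested genes it was 0.01. Over WT, the medians were 0.08 with 13 of 15 positive and 0.23 with 17 of 19 positive, against 0.02 over all tested genes with 54.5% positive. The mitosis medians depended on a single library: without cFGF23-Hyp_2 they were -0.10 against Hyp and -0.01 against WT. The replication median against Hyp was 0.03 without Hyp_2, and that against WT was 0.01 without cFGF23-Hyp_2. Without WT_5 and cFGF23-Hyp_5, the replication medians were -0.08 against Hyp and 0.20 against WT, and the mitosis medians 0.19 and 0.28. With cFGF23-Hyp_3 left out as well, they were -0.00 and 0.24, and 0.19 and 0.44.

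Pcna had the smallest p-value of all members. It was at 24.8, 28, 34.5, 28.4 and 25.6 CPM in cFGF23-Hyp, at 24.9, 24.4, 23.5, 20.6 and 22.1 CPM in Hyp, and at 21.1, 25.2, 25.6, 26.4 and 25.4 CPM in WT. The lowest cFGF23-Hyp value lay just below the highest Hyp value, and cFGF23-Hyp_3 was the highest of the 15 libraries. The log2 fold change over Hyp was 0.29 ± 0.10 (95% interval 0.08 to 0.49), with an unadjusted p of 0.0085 and an adjusted p of 0.320 (edgeR), and it was 0.21 without cFGF23-Hyp_3. Over WT it was 0.19 ± 0.10 (adjusted p = 0.895, edgeR), and 0.11 without cFGF23-Hyp_3. The authors' deposited table gave 0.29 over Hyp with an adjusted p of 0.36.

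For 2 helicase subunits the fitted value over Hyp had the opposite sign to that of Pcna. Mcm3 was at 3.93, 4.88, 3.54, 2.42 and 2.24 CPM in cFGF23-Hyp and Mcm2 at 13.6, 16.6, 11, 11.5 and 12.0 CPM in the same libraries. Both genes had ranges that overlapped those of Hyp. Over Hyp, the log2 fold changes were -0.54 ± 0.27 for Mcm3 and -0.26 ± 0.13 for Mcm2 (adjusted p = 0.496 and 0.497, edgeR). Over WT they were 0.01 ± 0.28 and 0.01 ± 0.13. Both genes thus stood higher in the fitted Hyp mean than in the other groups by like amounts, a difference that was not called in any comparison.

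Ccne2, the cyclin E2 gene, was at 1.96, 2.44, 3.12, 2.07 and 2.86 CPM in cFGF23-Hyp, at 2.52, 2.11, 1.59, 1.94 and 2.28 CPM in Hyp, and at 1.29, 1.8, 1.67, 2.09 and 2.28 CPM in WT. Mcm5 was at 5.09, 8.09, 5.48, 5.05 and 5.33 CPM in cFGF23-Hyp, at 5.59, 6.54, 4.72, 6.43 and 5.54 CPM in Hyp, and at 4.89, 6.38, 3.56, 2.96 and 5.85 CPM in WT. In both genes the cFGF23-Hyp and WT ranges overlapped. The log2 fold changes over WT were 0.43 ± 0.20 for Ccne2 and 0.31 ± 0.20 for Mcm5 (adjusted p = 0.863 and 0.970, edgeR). That of Mcm5 was 0.15 without cFGF23-Hyp_2.

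In the mitosis class, Prc1, which bundles the microtubules of the spindle midzone, was at 1.53, 1.83, 0.674, 0.484 and 1.0 CPM in cFGF23-Hyp, at 0.818, 1.41, 0.736, 0.303 and 0.292 CPM in Hyp, and at 0.575, 0.681, 0.523, 0.631 and 0.217 CPM in WT. Ccnb2, the cyclin B2 gene, was at 1.72, 2.49, 1.68, 0.622 and 1.62 CPM in cFGF23-Hyp, at 1.02, 0.757, 1.04, 1.4 and 0.759 CPM in Hyp, and at 1.51, 1.3, 0.575, 0.389 and 0.867 CPM in WT. For Prc1 3, and for Ccnb2 4, of the 5 cFGF23-Hyp libraries lay above every WT library, and cFGF23-Hyp_4 lay within the WT range in both. The log2 fold changes over WT were 1.10 ± 0.45 for Prc1 and 0.85 ± 0.37 for Ccnb2 (adjusted p = 0.839 for both, edgeR), and 0.83 and 0.63 without cFGF23-Hyp_2. Over Hyp they were 0.65 ± 0.44 and 0.72 ± 0.37 (adjusted p = 0.590 and 0.497, edgeR), and that of Prc1 was 0.39 without cFGF23-Hyp_2 and 1.07 without Hyp_2.

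Cenpe was at 2.95, 1.88, 2.44, 2.56 and 2.09 CPM in cFGF23-Hyp, with a log2 fold change over WT of -0.73 ± 0.34 (adjusted p = 0.863, edgeR), which was -0.34 without WT_2. Aurka, a kinase of the spindle poles, was at 1.17, 1.72, 1.68, 1.45 and 1.47 CPM in cFGF23-Hyp, at 1.84, 1.62, 1.9, 2.12 and 1.93 CPM in Hyp, and at 1.72, 1.86, 1.57, 1.85 and 1.25 CPM in WT. Its cFGF23-Hyp range reached above the lowest Hyp value through 2 libraries. The log2 fold change over Hyp was -0.33 ± 0.18 (adjusted p = 0.515, edgeR). Kif11 was at 1.23, 2.16, 0.59, 0.691 and 1.31 CPM in cFGF23-Hyp, a wider range than that of either other group. Its log2 fold change was -0.07 ± 0.29 over Hyp and 0.65 ± 0.30 over WT (adjusted p = 0.936 and 0.863, edgeR), and without cFGF23-Hyp_2 these were -0.41 over Hyp and 0.31 over WT.

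**Figure D3:**
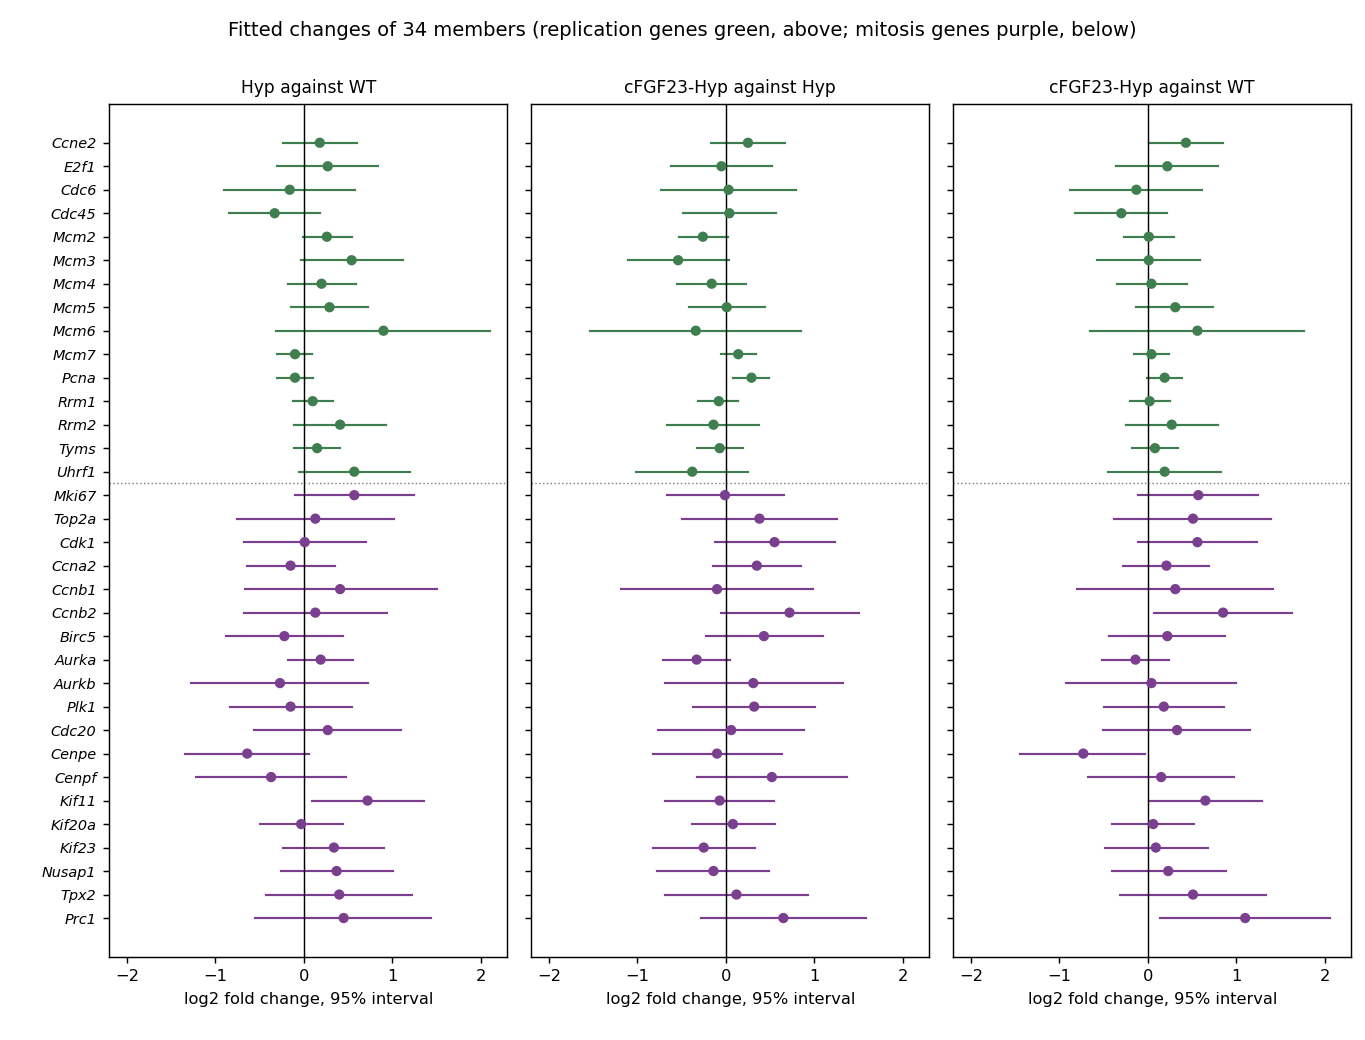
Fitted log2 fold changes (points) with 95% intervals (bars) on the x axis for 34 tested members (y axis) in 3 comparisons. The intervals that leave out 0 are those of Kif11 in Hyp against WT, Pcna in cFGF23-Hyp against Hyp, and Ccne2, Prc1, Ccnb2, Kif11 and Cenpe in cFGF23-Hyp against WT.

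The highest mitosis values of the cFGF23-Hyp group were mostly those of cFGF23-Hyp_2. Mki67 was at 2.58, 5.1, 2.19, 1.52 and 2.78 CPM in the cFGF23-Hyp libraries, Top2a at 3.07, 5.71, 0.758, 1.73 and 1.55 CPM, Cdk1 at 1.35, 2.83, 1.1, 1.04 and 1.08 CPM, and Ccnb1 at 0.368, 1.05, 0.337, 0.138 and 0.773 CPM. The second library was the highest of all 15 for Mki67, Top2a and Cdk1, and the highest of its group for Ccnb1. It was the highest of 15 for 11 of 21 mitosis members and for 4 of 16 replication members, and among the 3 highest for 16 and 11 of them. Of 50 further mitosis genes that are not members, it was the highest for 24. Of 40 further replication genes it was the highest for 6, where cFGF23-Hyp_3 was the highest for 7. The share of all tested genes for which it was the highest was not counted. Its summed mitosis members came to 52.7 CPM, against 25.8 to 35.8 CPM in the other cFGF23-Hyp libraries, 29.3 to 35.2 CPM in Hyp and 23.7 to 38.2 CPM in WT.

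Without cFGF23-Hyp_2, the log2 fold change of Top2a over Hyp was -0.15, against 0.38 ± 0.42 with it, and that of Cdk1 0.16, against 0.55 ± 0.32. Its summed markers of other cell types lay within the range of the other 14 libraries. Its summed macrophage markers (13 genes) came to 292 CPM, where the 5 cFGF23-Hyp libraries lay at 210 to 365 CPM, the Hyp libraries at 278 to 339 CPM and the WT libraries at 238 to 293 CPM. Its erythroid markers (10 genes) came to 392 CPM, the highest of its group, where the Hyp libraries lay at 252 to 510 CPM and the WT libraries at 130 to 441 CPM. Its tubular injury markers (13 genes) came to 869 CPM, where the groups spanned 819 to 1163, 788 to 1044 and 819 to 932 CPM in cFGF23-Hyp, Hyp and WT. T and NK cell markers (12 genes) summed to 4.55 to 6.85 CPM over all 15 libraries, and 6 of these genes, Cd3e, Cd3d, Trbc2, Nkg7, Klrb1c and Gzma, had at most 10 counts in every library.

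At the low end of the replication class stood WT_4, which was among the 3 lowest of 15 libraries for 11 of 16 members. In the mitosis class several libraries were low: cFGF23-Hyp_4 was among the 3 lowest for 9 of 21 members, and cFGF23-Hyp_3 and WT_4 for 8 each. The lowest value of all 15 belonged to cFGF23-Hyp_3 for 5 mitosis members, to cFGF23-Hyp_4 for 5 and to WT_4 for 4. The summed replication members of WT_4 came to 99.8 CPM and its summed mitosis members to 23.7 CPM, each the lowest of 15. This library had the most counts (21829906). Of the 50 further mitosis genes, WT_4 was the lowest for 14 and cFGF23-Hyp_3 for 10. Over groups, the summed replication members averaged 132 ± 16.1 CPM in cFGF23-Hyp, 135 ± 10.8 CPM in Hyp and 121 ± 12.7 CPM in WT (SD, n = 5 each). The summed mitosis members averaged 34.8 ± 10.7 CPM in cFGF23-Hyp, 32.4 ± 2.58 CPM in Hyp and 30.5 ± 5.52 CPM in WT. The replication means of Hyp and WT lay further apart than either SD, and their ranges overlapped, at 121 to 149 CPM in Hyp and 99.8 to 134 CPM in WT. Without Mcm6, described next, they averaged 119 ± 8.7 CPM in Hyp and 112 ± 8.22 CPM in WT, closer than either SD. The other pairs of means lay closer than the SD of the more variable group.

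**Figure D4:**
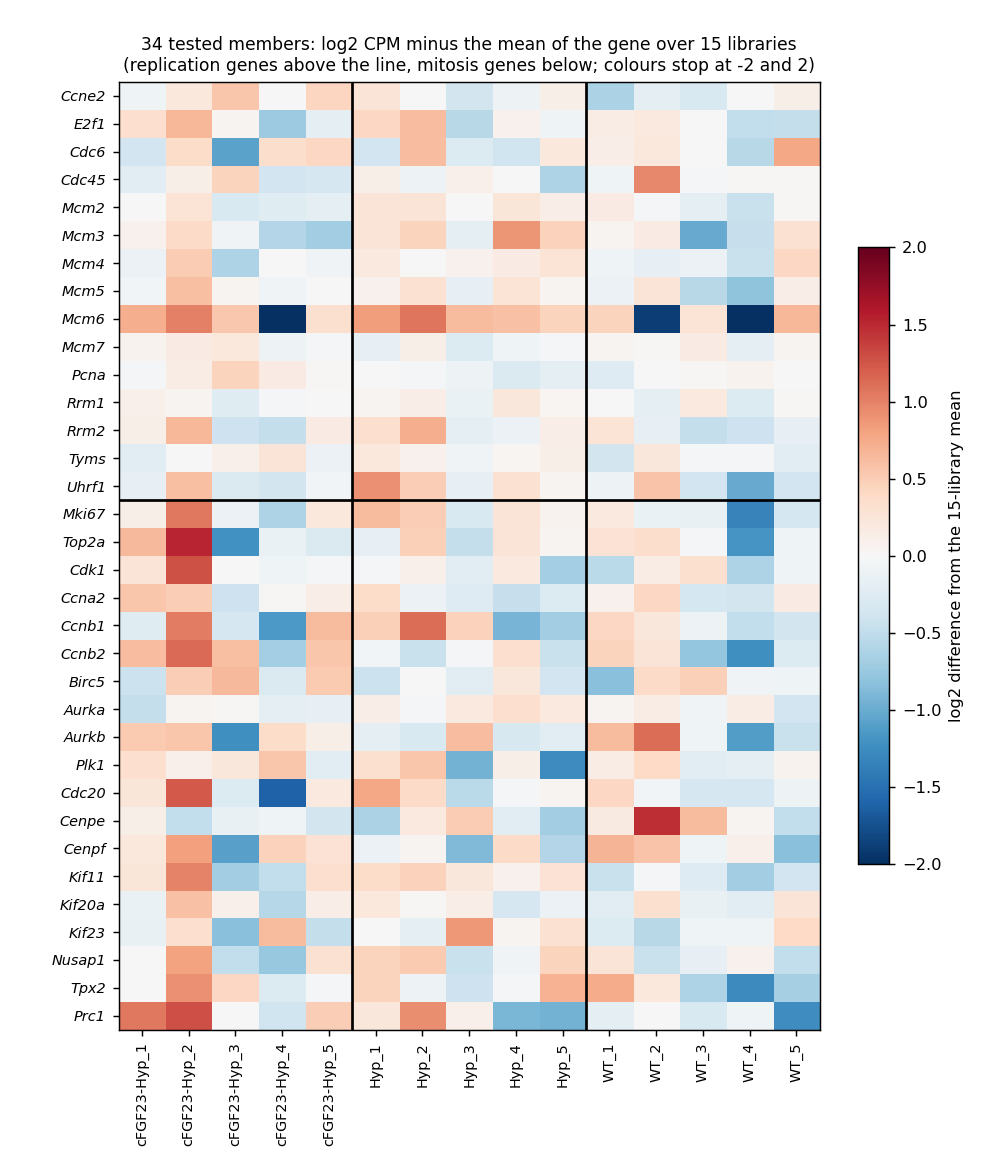
Log2 CPM of 34 tested members (rows) in 15 libraries (columns) as the difference from the mean of each gene over the libraries, red above and blue below, with colours stopping at -2 and 2. The column of cFGF23-Hyp_2 is red through most mitosis genes, that of WT_4 is mostly blue, and the row of Mcm6 has 3 dark blue cells.

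Mcm6, a subunit of the same helicase ring as Mcm2 (ENSMUSG00000026355, chromosome 1, 128259327 to 128287401 on the minus strand as the deposited tables give it), varied in another way. It was at 16.3, 19.8, 14.2, 1.8 and 12.2 CPM in cFGF23-Hyp, at 17.6, 20.7, 15.3, 14.7 and 13.4 CPM in Hyp, and at 13.3, 2.54, 11.8, 0.874 and 15.5 CPM in WT. Thus cFGF23-Hyp_4, WT_2 and WT_4 held 0.874 to 2.54 CPM, and the other 12 libraries 11.8 to 20.7 CPM with none in between. In the ordered values of a gene, with 0.1 CPM added and at least 2 libraries on each side, the largest ratio between neighbours was 4.51 for Mcm6, which 12 of 15789 tested genes (0.076%) reached. The next member was Plk1 at 1.66. Mcm6 had 18 counts in WT_4, 26 in cFGF23-Hyp_4 and 41 in WT_2, and 158 to 382 counts in the other 12 libraries.

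The other 5 subunits did not differ by a like amount. Mcm6 made up 3.62% of the summed FPKM of Mcm2 to Mcm7 in cFGF23-Hyp_4, 4.53% in WT_2 and 2.1% in WT_4, and 19% to 25.7% in the other 12 libraries. Without Mcm6, the subunits summed to 10.2 FPKM in cFGF23-Hyp_4, 11.3 FPKM in WT_2 and 8.67 FPKM in WT_4, where the other libraries lay at 10.2 to 14.1 FPKM. WT_4 was thus the lowest of 15 in this sum too. Of the genes beside Mcm6, Dars (an aminoacyl tRNA synthetase) was at 61.7 to 87.3 CPM and Ubxn4 at 98.7 to 135 CPM over the 15 libraries, and Lct (lactase) at 0 to 0.245 CPM. The highest library had less than 2 times the level of the lowest for Dars and Ubxn4. The low libraries belong to both cFGF23-Hyp and WT, and the Hyp libraries were all high. The log2 fold change of Mcm6 was 0.90 ± 0.57 in Hyp over WT, -0.34 ± 0.56 in cFGF23-Hyp over Hyp and 0.56 ± 0.57 in cFGF23-Hyp over WT (adjusted p = 0.518, 0.837 and 0.999, edgeR). The first was 0.59 without WT_4 and 1.59 with limma-voom, the second -0.06 without cFGF23-Hyp_4 and the third 0.26 without WT_4. Without Mcm6, the median of the replication class was 0.19 in Hyp over WT, -0.06 in cFGF23-Hyp over Hyp and 0.06 in cFGF23-Hyp over WT. What sets the low libraries apart was not tested.

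**Figure D5:**
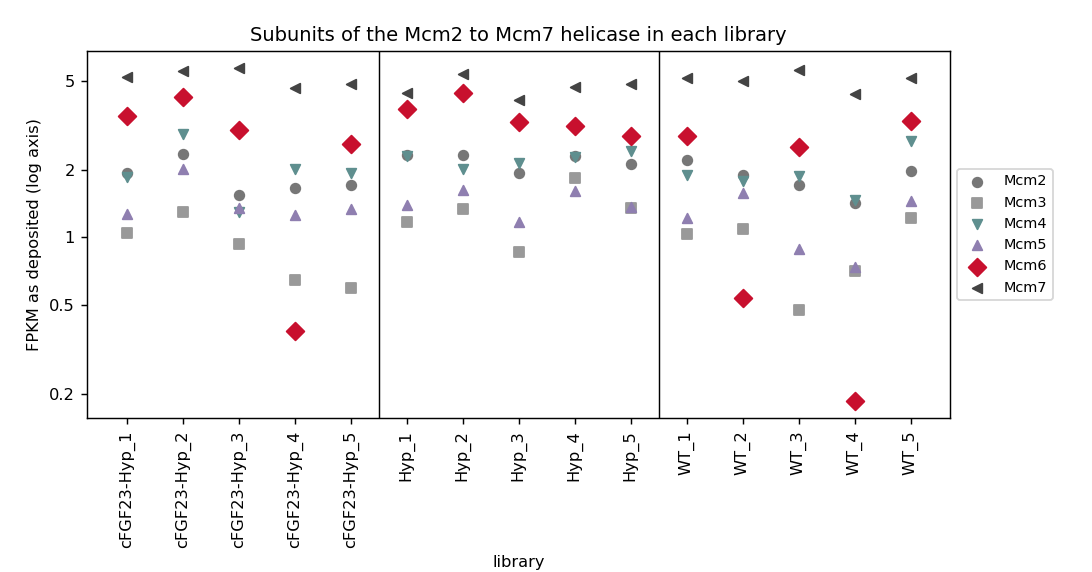
Deposited FPKM (y axis, log scale) of the 6 helicase subunits in each library (x axis). Mcm6 (red diamonds) comes after Mcm7 as the most abundant subunit in 12 libraries and is the least abundant in cFGF23-Hyp_4, WT_2 and WT_4.

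Cell cycle genes outside the member list were counted in 4 lists. Of 40 further replication genes, 35 were tested, and 1 was called in Hyp against WT: Mcm10, a factor that helps to activate the loaded helicase. Mcm10 was at 5.34, 6.48, 7.16, 4.56 and 6.8 CPM in cFGF23-Hyp, at 5.32, 4.7, 6.01, 4.91 and 4.38 CPM in Hyp, and at 7.98, 8.67, 8, 7.97 and 7.42 CPM in WT. All Hyp values lay below all WT values, WT_5 included. Its log2 fold change in Hyp over WT was -0.66 ± 0.13 (adjusted p = 0.048, edgeR). The call is at the edge of the threshold: it was kept under 11 of 25 alternatives, with adjusted p-values of 6.3e-04 to 0.152 (edgeR, DESeq2 and limma-voom), and was lost with any 1 of WT_1 to WT_4, Hyp_1 to Hyp_5, cFGF23-Hyp_1 or cFGF23-Hyp_2 left out. It was also lost with WT_5 placed in Hyp (-0.58, adjusted p = 0.094, edgeR), with no filter on low counts and with a block on replicate number. In cFGF23-Hyp over WT the log2 fold change of Mcm10 was -0.40 ± 0.13 (adjusted p = 0.724, edgeR). Mcm10 was called without WT_5, cFGF23-Hyp_3 and cFGF23-Hyp_5, at -0.57 (adjusted p = 0.047, edgeR), in a fit that called 583 genes in this comparison. From the same list, Gmnn, the geminin gene, had a log2 fold change of 0.33 ± 0.15 in cFGF23-Hyp over Hyp and Dck, a nucleoside kinase, one of 0.36 ± 0.15 in cFGF23-Hyp over WT (adjusted p = 0.473 and 0.839, edgeR). That of Gmnn was 0.20 without cFGF23-Hyp_3.

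Of 50 further mitosis genes, 36 were tested and 0 called in any comparison by edgeR, DESeq2 or limma-voom. At an unadjusted p under 0.05 (edgeR) stood 0 in Hyp over WT, 1 in cFGF23-Hyp over Hyp and 0 in cFGF23-Hyp over WT. The smallest p-value among them was that of Spc24, a kinetochore gene, in cFGF23-Hyp over Hyp, with a log2 fold change of -0.75 ± 0.27 (adjusted p = 0.344, edgeR). It was at 1.17, 2.38, 1.18, 1.24 and 0.695 CPM in cFGF23-Hyp, against 2.52, 1.84, 1.66, 2.43 and 2.98 CPM in Hyp. Its partner Spc25 had 0.29 ± 0.16 and the phosphatase Cdc25b 0.34 ± 0.21 in Hyp over WT (adjusted p = 0.466 and 0.499, edgeR), and Cdc25b -0.36 ± 0.21 in cFGF23-Hyp over Hyp. The values of Cdc25b were 0.18 without WT_4 and -0.21 without cFGF23-Hyp_5. Cdca2 and the condensin gene Ncaph had 0.61 ± 0.33 and 0.48 ± 0.26 in cFGF23-Hyp over WT (adjusted p = 0.925 and 0.926, edgeR). The medians of the tested genes of this list were 0.15 in Hyp over WT, -0.00 in cFGF23-Hyp over Hyp and 0.09 in cFGF23-Hyp over WT.

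Of 25 genes of G1, with the D cyclins, the E2F family and the DREAM complex, 23 were tested and 0 called by edgeR or limma-voom, with 2, 1 and 2 at an unadjusted p under 0.05 (edgeR) in Hyp over WT, cFGF23-Hyp over Hyp and cFGF23-Hyp over WT. Cdk2, the partner of cyclin E, was at 11.3, 14.1, 12.8, 14.7 and 13.5 CPM in Hyp, against 10.1, 9.85, 10.4, 11 and 11.4 CPM in WT, with a log2 fold change of 0.33 ± 0.10 (adjusted p = 0.146, edgeR). DESeq2 called it alone of this list, with an adjusted p of 0.048, and edgeR called it without WT_5, cFGF23-Hyp_3 and cFGF23-Hyp_5 (0.36, adjusted p = 0.030). Over all genes in Hyp over WT, DESeq2 called 351 and that edgeR fit 1527, against 54 in the main fit. Ccnd2, the cyclin D2 gene, had log2 fold changes of 0.68 ± 0.24 in Hyp over WT and -0.64 ± 0.25 in cFGF23-Hyp over Hyp (adjusted p = 0.241 and 0.397, edgeR). It was at 22 CPM in Hyp_4, against 7.57 to 12.9 CPM in the other Hyp libraries, and without Hyp_4 the values were 0.36 in Hyp over WT and -0.32 in cFGF23-Hyp over Hyp. Lin52, of the DREAM complex, had 0.23 ± 0.11 in cFGF23-Hyp over Hyp, and the transcription factor gene Myc -0.86 ± 0.28 in cFGF23-Hyp over WT (adjusted p = 0.493 and 0.707, edgeR).

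Of 24 genes that hold the cycle back, the CDK inhibitors and targets of p53, 22 were tested and 0 called by edgeR or limma-voom, with 6, 3 and 1 at an unadjusted p under 0.05 (edgeR) in the same order of comparisons. These are 27.3%, 13.6% and 4.55% of the list, against 13.4%, 10.4% and 5.73% of all tested genes. DESeq2 called 1, Sesn2, in Hyp over WT, where it called 2.46% of all genes it tested. Sesn2, a stress-induced sestrin, was at 73.3, 71.6, 53.3, 75.1 and 82.9 CPM in Hyp, against 48.2, 43.6, 32.6, 44.3 and 63.4 CPM in WT, where the highest value was that of WT_5. Its log2 fold change was 0.62 ± 0.17 (adjusted p = 0.135, edgeR), and it was called without WT_5, at 0.76 with an adjusted p of 0.044 (edgeR). The fit without WT_5 called 160 genes in Hyp over WT. Ccng1, the cyclin G1 gene and a p53 target, had -0.34 ± 0.12 in Hyp over WT (adjusted p = 0.231, edgeR). In cFGF23-Hyp over WT, Sesn2 had 0.39 ± 0.17 (adjusted p = 0.841, edgeR). Without WT_5, cFGF23-Hyp_3 and cFGF23-Hyp_5, both were called, Ccng1 at -0.40 and Sesn2 at 0.67 (adjusted p = 0.035 and 0.046, edgeR). That fit called 1527 genes in Hyp over WT and 583 in cFGF23-Hyp over WT. In cFGF23-Hyp over Hyp, the apoptosis gene Bbc3 had -0.73 ± 0.21 and Plk2 -0.31 ± 0.11 (adjusted p = 0.244 and 0.329, edgeR), and in cFGF23-Hyp over WT Gadd45g had -1.22 ± 0.62 (adjusted p = 0.898, edgeR). That of Gadd45g was -2.24 without cFGF23-Hyp_5 and -0.81 without WT_5, and it was called without WT_5, cFGF23-Hyp_3 and cFGF23-Hyp_5, at -2.30 (adjusted p = 0.026, edgeR).

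Beside the small positive medians of the members in Hyp over WT stood differences in markers of other cell types, few of which were called by edgeR. All 10 endothelial markers had a positive log2 fold change in Hyp over WT, with a median of 0.33 and 0 calls, and all 10 a negative one in cFGF23-Hyp over Hyp, with a median of -0.29. At an unadjusted p under 0.05 (edgeR) stood 7 of the 10 in Hyp over WT and 8 in cFGF23-Hyp over Hyp, against 13.4% and 10.4% of all tested genes. Macrophage markers had a median of 0.32 in Hyp over WT and 0.33 in cFGF23-Hyp over WT, with 11 of 12 tested genes positive in each and 0 called. The endothelial markers summed to 315 to 493 CPM in cFGF23-Hyp, 472 to 624 CPM in Hyp and 365 to 540 CPM in WT. B and plasma cell markers summed to 244 to 415 CPM in cFGF23-Hyp, 329 to 780 CPM in Hyp and 206 to 349 CPM in WT. Of their 7 tested genes, 1 was called in Hyp against WT, the joining chain gene Jchain at 1.87 ± 0.38 (adjusted p = 0.048, edgeR), and Ms4a1 and Tnfrsf17 had at most 10 counts in every library. Proximal tubule markers summed to 35171 to 55702 CPM in cFGF23-Hyp, 31657 to 38737 CPM in Hyp and 39123 to 53500 CPM in WT, with 1 of 12 called in Hyp against WT, the anion transporter gene Slc22a8 at 1.16 ± 0.22 (adjusted p = 0.034, edgeR). The median of this list in Hyp over WT was -0.22, with 4 of 12 positive, and 5 of its 6 genes at an unadjusted p under 0.05 were lower in Hyp. Markers of the distal tubule and collecting duct (11 genes, 0 called) summed to 4263 to 6240 CPM in cFGF23-Hyp, 5312 to 6728 CPM in Hyp and 5493 to 5696 CPM in WT. Tubular injury markers (12 tested, 0 called) had a median of 0.18 in Hyp over WT, with 8 of 12 positive. At an unadjusted p under 0.05 (edgeR) stood 3 of them (25%), all higher in Hyp, against 13.4% of all tested genes. The counts of calls given so far for these marker lists are those of edgeR. In Hyp against WT, DESeq2 called 3 B and plasma cell, 2 proximal tubule, 2 distal, 1 macrophage and 1 tubular injury marker. With limma-voom these were 1, 2, 0, 0 and 0. Over all genes, 2.46% were called by DESeq2 and 0.481% by limma-voom. In cFGF23-Hyp against Hyp, DESeq2 called 1 proximal tubule marker, where it called 0.815% of all genes it tested. The part of these cell types in the members' values was not tested.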

How the data were processed

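Per the labels' protocols, RNA of total kidney was made into libraries with the NEBNext Ultra RNA kit; whether strand was kept, the aligner, the counter and the test behind the deposited p-values were not stated in what was used here. Per the submitters' processing notes the build was mm10, but coordinates in the deposited tables differ from GRCm38 and are printed as deposited, apart from the RefSeq promoters. The authors deposited 2 tables with raw counts per gene and library, FPKM, a normalized signal (the counts times 1 constant per library), and their own log2 fold changes and p-values. The deposited FPKM values equal the count over gene length times 1 constant per library, and were used to compare genes. The tables (28216 and 28110 genes) were joined on gene ID, and 299 genes without a name (0.219% to 0.363% of counts) were left out.

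Counts of 15 libraries entered 1 edgeR fit (4.0.16, R 4.3.3; estimateDisp, glmQLFit, glmQLFTest, TMM, filterByExpr, minimum count 10), with a mean per group, no covariate and Benjamini-Hochberg adjustment, and the steps were tested on simulated data. SE is the log2 fold change over the square root of F. Alternatives were DESeq2 1.42.0, limma-voom (limma 3.58.1) and those named in the closing section. Reads carry no molecular identifiers, and the spread over mice includes counting error. The members and lists were chosen with earlier results of these data known. Values in every library are given for Mki67, Top2a, Cdk1, Ccnb1, Mcm2, Mcm6, Pcna and Ccne1 and for the 3 members of each class with the smallest p per comparison. Of the other lists, called genes or the 2 with the smallest p are named. One gene this rule takes is not reported here.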

Additional observations from a re-analysis of the deposited data

Results flagged for a closer look

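In 117 groups of 5 libraries (37 members and both summed levels in 3 groups), 7 single libraries lay far from the other 4 of their group by Dixon's test at the 95% level, which picks out about 1 group in 20 by chance. Of these, 3 were high values in cFGF23-Hyp_2. They were Mcm5 at 8.09 CPM, against 5.05 to 5.48 CPM in the other 4 cFGF23-Hyp libraries, Uhrf1 at 3.21 CPM, against 1.59 to 2.01 CPM, and Cdk1 at 2.83 CPM, against 1.04 to 1.35 CPM. In WT_2, Cdc45 was at 4.77 CPM, against 2.23 to 2.44 CPM in the other 4 WT libraries, and Bub1 at 0.496 CPM, against 0.209 to 0.291 CPM. Pcna in WT_1 was low at 21.1 CPM, against 25.2 to 26.4 CPM in the other 4 WT libraries. Aurkb in Hyp_3 was at 0.92 CPM, against 0.425 to 0.477 CPM in the other 4 Hyp libraries. The low Mcm6 values do not meet this test, since 2 WT libraries share them and cFGF23-Hyp_4 is not far enough from the rest of its group.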

How the results depend on the processing

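No member was called in any of the 102 member values under any alternative fit. In Hyp against WT, the 54 called genes became 15 with the replicate block, 516 with only the 2 groups compared, 97 with WT_5 placed in Hyp, 228 without WT_5 and cFGF23-Hyp_5, 1527 without these and cFGF23-Hyp_3, and 351 with DESeq2, and 7 to 345 with 1 library left out. In cFGF23-Hyp against Hyp, the 0 calls became 67 without WT_5 and cFGF23-Hyp_5, 63 without these and cFGF23-Hyp_3, 2 with limma-voom and 121 with DESeq2, and 0 to 25 with 1 library left out. In cFGF23-Hyp against WT they became 1 with WT_5 placed in Hyp, 177 and 583 without those libraries, 6 with DESeq2, and 0 to 3 with 1 library left out. The cause was not tested. The block on replicate number stays an alternative, since no label ties equal numbers to a shared litter or day: deviations correlated above 0.1 in 4 of 15 such pairs, and 3 of 15 libraries were closest to their own number.

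Directions that turned were few. Cdc6 in Hyp over WT was 0.25 with WT_5 placed in Hyp. Without cFGF23-Hyp_2, Top2a was -0.15 over Hyp and -0.03 over WT, and Cdc20 -0.41 over Hyp and -0.14 over WT. With 1 library left out, the highest values were 0.60 and 0.74 for Top2a, both without cFGF23-Hyp_3, and 0.31 and 0.58 for Cdc20, both without cFGF23-Hyp_4. Without WT_5, cFGF23-Hyp_3 and cFGF23-Hyp_5, Kif23 was 0.06 in cFGF23-Hyp over Hyp and Birc5 -0.10 in cFGF23-Hyp over WT. Of 3107 values of named genes under alternatives, 113 turns of sign by less than 1 SE in uncalled genes were counted as no change.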
